A study of Homo sapiens with 2 samples.

Results

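The AP-1 and immediate early factors were followed as 10 genes: FOS, FOSB, FOSL1 and FOSL2 of the Fos family, JUN, JUNB and JUND of the Jun family, and ATF3, EGR1 and IER3. Members were found by gene symbol, taking every spot that carried 1 of these symbols and was not marked as unusable by the scanner software. This gave 21 spots of 18 cDNA clones on each array, out of 41568 spots and 34674 tested probes, and the 10 genes stand among 13494 genes with a tested probe. All 18 clones passed the filter on dim spots, and each was at 1.5 times its local background or more in both lines on both arrays. Of these clones 17 carry the symbol of 1 gene only, while the sequence reads of clone IMAGE:753104 are assigned to both DCT and EGR1, so that its signal cannot be given to either gene.

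Saos-2 is a human osteosarcoma cell line, and Saos-2-2 is a stable derivative that expresses an shRNA against TSG101, a component of the endosomal sorting machinery. The question of the array experiment was how transcript levels differ when TSG101 is lowered. The lines were hybridised together on spotted cDNA arrays in 2 biological replicates. The dye of Saos-2-2 was Cy5 and that of its parent Cy3 both times. Both lines grew in DMEM with fetal bovine serum and no further treatment. The methods describe Saos-2-2 as cloned from colonies that resisted puromycin and were green from a GFP plasmid introduced together with the shRNA construct. No line with a control shRNA was on the arrays, and the dyes were not exchanged. Lower TSG101, cloning, selection, other effects of the shRNA and dye preference therefore cannot be told apart in any value given here.

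AP-1 is a dimer of basic leucine zipper proteins. Jun proteins pair with each other or with Fos proteins, whereas Fos proteins need a Jun partner, and the dimer binds the sequence TGACTCA, known as the TRE, or the related cyclic AMP response element TGACGTCA. Many of these genes are immediate early genes, transcribed within minutes of serum or growth factor signals without new protein synthesis, and their mRNAs are short-lived. In bone, Fos and Jun proteins take part in the differentiation of osteoblasts, and FOS is known as an oncogene of osteosarcoma in mice.

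The transcripts lay on both sides of the parental level. EGR1 and FOS gave the highest log2 ratios of Saos-2-2 over Saos-2, at 1.19 and 0.80 by their highest clones. FOSL2, JUN and IER3 were below 0 by every clone on both arrays, with JUN at -0.86 and -0.73 by its clones. JUNB, JUND, FOSL1, FOSB and ATF3 had mean ratios between -0.10 and 0.39 whose intervals included 0. No clone passed an adjusted p of 0.05 in limma. This was also so for all tested probes, of which 0% were called higher and 0% lower, while 8030 had an unadjusted p under 0.05.

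Counted by the unadjusted p of limma, 2 of the 18 clones were higher in Saos-2-2 (FOS IMAGE:26474 and EGR1 IMAGE:840944), against 13.5% of all tested probes. In the other direction 7 of the 18 clones were lower (the 4 of FOSL2, the 2 of JUN and that of IER3), against 9.7% of all probes. Ratios were above 0 on both arrays for 8 clones, against 35.2% of all probes, and below 0 on both for 7, against 35.6%. Without the clone shared with DCT, 7 of 17 clones were above 0 on both arrays. The 7 lower clones belong to 3 genes, and clones of 1 gene measure the same transcript.

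TSG101 itself gave log2 ratios of -0.48 and -0.24, with a mean of -0.36 (standard error 0.12, n = 2 arrays) and an adjusted p of 0.201 in limma. Standard errors and intervals throughout are the moderated ones of limma, which borrow variance from all tested probes. They do not measure the spread of the 2 arrays alone, and can be smaller than it where the arrays disagree. Across all tested probes, which are not independent, the arrays correlated with a Pearson's r of 0.488. The median foreground over local background lay between 3.28 and 3.58 across channels and arrays. Of 10 markers of the osteoblast lineage, 9 were on the arrays and all 9 were above 1.5 times background in both lines, RUNX2 included. The 6 of 8 markers of other cell types on the arrays passed the same floor, with the keratin KRT5 at 26.3 times background in Saos-2, so that this floor did not separate the cell types. The arrays stood apart at several bone matrix genes. COL1A2, a chain of type I collagen, had a log2 ratio of -3.23 on replicate 1 and 3.33 on replicate 2. COL1A1 had -2.91 and 1.17, and SPARC, another matrix protein of bone, had -2.22 and 2.27. At the brighter COL1A2 spot the net intensity of Saos-2 was 2576 and 1956 on the arrays, whereas that of Saos-2-2 was 207 and 19154, so that the Saos-2-2 channel differed between the arrays far more than the Saos-2 channel. For this reason the normalized ratios of member clones below are given on both arrays, and their relation to this difference was not tested.

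**Figure D1:**
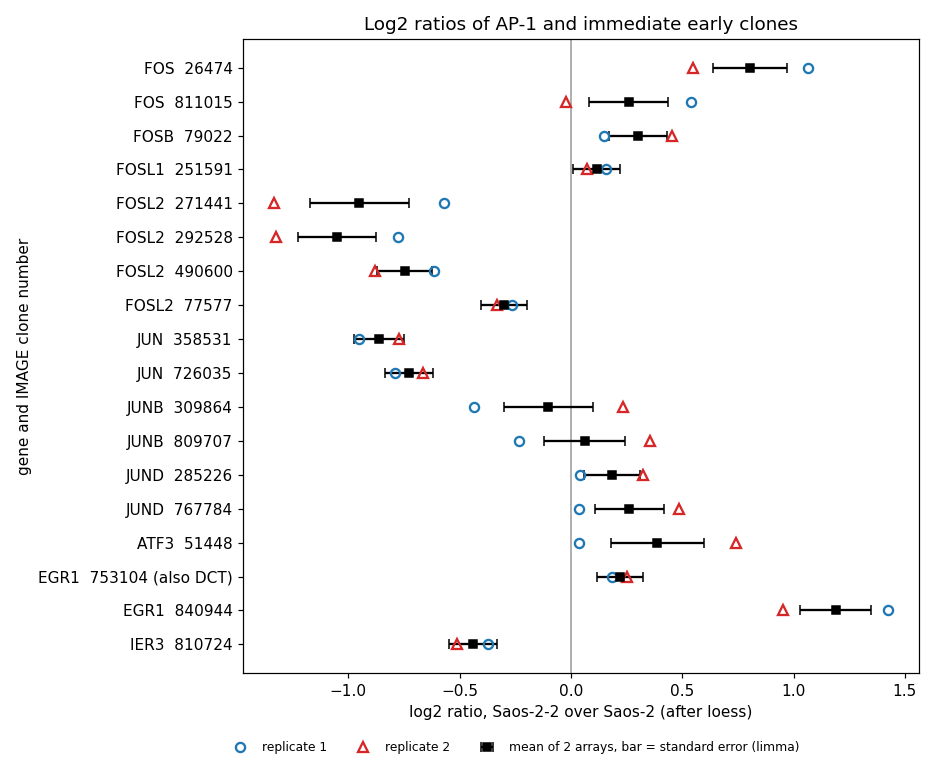
Log2 ratio of Saos-2-2 over Saos-2 (x axis) for each of the 18 clones (y axis), with circles for replicate 1, triangles for replicate 2 and squares for the mean with its standard error from limma. The clones of FOSL2, JUN and IER3 lie left of 0 on both arrays, EGR1 IMAGE:840944 lies farthest right at 1.42 and 0.95, and both JUNB clones straddle 0.

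The upstream sequences of EGR1, FOS, JUN and FOSL2 are shown because these genes had the ratios farthest from 0 on either side. JUND is shown beside them as the Jun gene with the highest mean ratio, although the intervals of its clones included 0. The sequences are the 250 bases before the annotated start from RefSeq (GRCh38.p14), written 5′ to 3′ on the strand of the gene. Capitals mark matches to any of the motifs searched. EGR1 lies at chr5:138465229-138465478 on the plus strand, FOS at chr14:75278578-75278827 on the plus strand, JUN at chr1:58784048-58784297 on the minus strand, FOSL2 at chr2:28392608-28392857 on the plus strand, and JUND at chr19:18281623-18281872 on the minus strand.
EGR1: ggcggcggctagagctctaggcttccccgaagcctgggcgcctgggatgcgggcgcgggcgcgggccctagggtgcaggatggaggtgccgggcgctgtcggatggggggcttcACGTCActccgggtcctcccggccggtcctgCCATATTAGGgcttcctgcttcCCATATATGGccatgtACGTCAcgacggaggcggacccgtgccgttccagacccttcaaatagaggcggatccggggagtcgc
FOS: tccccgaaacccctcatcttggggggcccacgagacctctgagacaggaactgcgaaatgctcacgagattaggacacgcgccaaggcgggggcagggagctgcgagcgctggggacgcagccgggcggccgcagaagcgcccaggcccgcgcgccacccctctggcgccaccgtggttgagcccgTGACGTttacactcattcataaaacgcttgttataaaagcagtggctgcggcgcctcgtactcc
JUN: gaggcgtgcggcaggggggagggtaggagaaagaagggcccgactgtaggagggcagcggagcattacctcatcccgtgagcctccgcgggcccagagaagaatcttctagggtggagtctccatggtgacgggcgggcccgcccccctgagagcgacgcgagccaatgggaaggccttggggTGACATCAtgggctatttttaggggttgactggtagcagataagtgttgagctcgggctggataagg
FOSL2: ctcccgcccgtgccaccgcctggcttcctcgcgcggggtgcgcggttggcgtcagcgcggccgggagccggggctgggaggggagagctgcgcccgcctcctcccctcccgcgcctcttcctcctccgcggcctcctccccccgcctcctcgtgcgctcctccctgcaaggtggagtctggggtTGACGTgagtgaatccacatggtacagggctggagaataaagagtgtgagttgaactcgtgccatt
JUND: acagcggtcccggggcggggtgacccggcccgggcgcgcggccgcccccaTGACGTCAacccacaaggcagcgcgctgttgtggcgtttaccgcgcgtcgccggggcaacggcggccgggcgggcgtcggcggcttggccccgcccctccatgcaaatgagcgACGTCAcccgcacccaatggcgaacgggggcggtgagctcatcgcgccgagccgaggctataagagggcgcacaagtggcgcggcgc

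Windows from 250 bases before to 50 after the start were searched on both strands, and 8 of the 10 genes had at least 1 window. FOSL1 and IER3 had none. The TRE, TGACTCA, is present in 4.95% of all 35116 windows, and among the members only FOSL2 held it, at positions 5 to 11 after its start. That site is shown with its neighbours, the TRE in capitals, at chr2:28392851-28392880 on the plus strand.
FOSL2 TRE: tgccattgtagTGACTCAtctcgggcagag

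The full cyclic AMP response element TGACGTCA, present in 1.85% of windows, was found in JUND only, at -200 to -193. Its core, TGACGT, which lies inside the full element, was in 7.98% of windows, and EGR1, FOS, FOSB, FOSL2 and JUND held it. In FOS it lies at -64 to -59, in FOSB at -60 to -55 and in FOSL2 at -66 to -61. JUN held TGACATCA at -67 to -60, a variant by which AP-1 proteins are known to act on the JUN promoter, and 2.61% of windows held these letters. ATF3 held the same letters at -123 to -116 in the first of its 2 windows. The CArG box, the site of serum response factor, was in 1.29% of windows, and EGR1 held it at -105 to -96 and at -83 to -74. No member window held the EGR site GCGTGGGCG, found in 0.795% of all windows, and JUNB held none of the motifs searched. The core and the TGACATCA variant were added to the search after the windows had been read. The core was shared by genes on either side of 0, with FOS and EGR1 above it and FOSL2 below it. A match is a run of letters and not a measured binding site.

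JUN encodes c-Jun, the strongest activator among the Jun proteins and the usual partner of the Fos proteins. Its net intensity, the mean foreground minus the local background before normalization, was lower in Saos-2-2 at every spot. On replicate 1 the first spot of clone IMAGE:358531 read 664 in Saos-2 against 294 in Saos-2-2, and on replicate 2 it read 510 against 308. The other spot of this clone had 619 and 275 on replicate 1, and 576 and 342 on replicate 2. Clone IMAGE:726035 had 1086 and 546 on replicate 1, and 890 and 579 on replicate 2. Both Saos-2-2 values lay below both Saos-2 values at each JUN spot, although the channels carry different dyes. The share of all spots separated in this way was not counted. After normalization the log2 ratios of IMAGE:358531 were -0.95 and -0.77, a mean of -0.86 (standard error 0.11, 95% interval -1.18 to -0.54, n = 2 arrays), or 1.82-fold lower in Saos-2-2. Its spots gave -0.96 and -0.95 on replicate 1, so that they differed by less than the arrays did. The adjusted p was 0.106 in limma, the smallest value reached by any probe, with 0.00198 before adjustment. IMAGE:726035 gave -0.79 and -0.66, a mean of -0.73 (standard error 0.11) and 1.66-fold lower, with an adjusted p of 0.109 in limma (0.00307 unadjusted). Among all probes these means ranked at the 1.10 and 1.78 percentiles.

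JUNB encodes a Jun protein that activates more weakly and can oppose c-Jun. Its clones were below 0 on replicate 1 and above 0 on replicate 2. IMAGE:309864 read 799 in Saos-2 against 524 in Saos-2-2 on replicate 1, and 1006 against 1239 on replicate 2. The log2 ratios were -0.44 and 0.23, a mean of -0.10 (standard error 0.20, adjusted p = 0.783 in limma). IMAGE:809707 had ratios of -0.23 and 0.35, a mean of 0.06 (standard error 0.18, adjusted p = 0.857). The direction of JUNB was therefore not settled by these arrays, and the 95% intervals of the clones ran from -0.67 to 0.58 between them.

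JUND encodes the Jun protein that is present in most resting cells and is not strongly induced by serum. At clone IMAGE:767784 its net intensity was 1342 in Saos-2 against 1215 in Saos-2-2 on replicate 1, and 1414 against 2034 on replicate 2. The log2 ratios after normalization were 0.04 and 0.49, a mean of 0.26 (standard error 0.15, adjusted p = 0.370 in limma). IMAGE:285226 gave 0.04 and 0.33, a mean of 0.18 (standard error 0.13, adjusted p = 0.426). Both clones lay near 0 on replicate 1 and higher on replicate 2. In the deposited ratios their means were on the other side of 0, at -0.001 for IMAGE:767784 and -0.065 for IMAGE:285226. The mean ratio of JUND exceeded that of JUN by 0.91 on replicate 1 and by 1.12 on replicate 2, and that of JUNB exceeded JUN by 0.54 and 1.01. These differences between ratios were not tested.

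**Figure D2:**
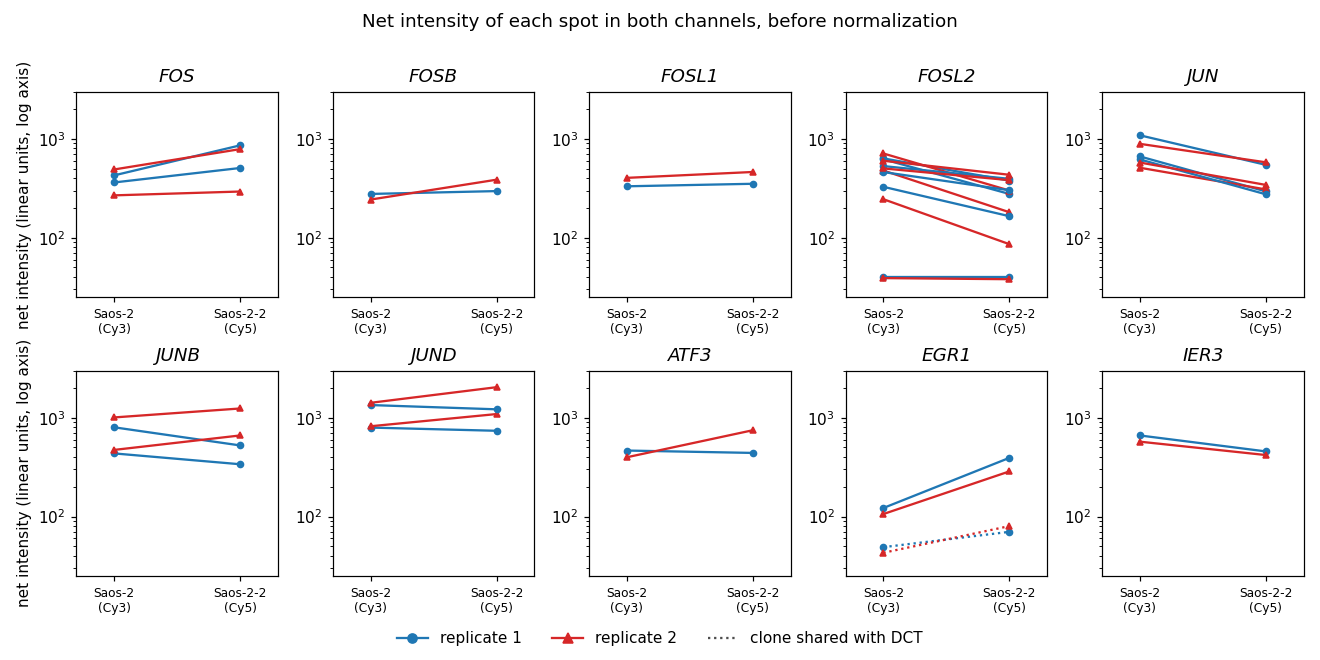
Net intensity of each spot in Saos-2 (Cy3) and Saos-2-2 (Cy5) before normalization, on a log axis, in 1 panel per gene, with replicate 1 as blue circles, replicate 2 as red triangles and the clone shared with DCT dotted. Every JUN line runs down and both lines of EGR1 IMAGE:840944 run up, from 122 to 392 on replicate 1 and from 106 to 286 on replicate 2. JUNB, JUND and ATF3 lines run down on replicate 1 and up on replicate 2.

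FOS encodes c-Fos, the founding immediate early factor. Clone IMAGE:26474 read 427 in Saos-2 against 859 in Saos-2-2 on replicate 1, and 490 against 787 on replicate 2, so that Saos-2-2 was higher on both arrays. Its log2 ratios were 1.06 and 0.55, a mean of 0.80 (standard error 0.17, 95% interval 0.33 to 1.28, n = 2 arrays), or 1.75-fold higher. The adjusted p was 0.133 in limma (0.0101 unadjusted). The other clone, IMAGE:811015, had 362 and 507 on replicate 1 but 268 and 293 on replicate 2. It gave ratios of 0.54 and -0.02, a mean of 0.26 (standard error 0.18, adjusted p = 0.427). Clones of FOS thus differed by more than 0.5 on both arrays, and the higher level rests on 1 of them. FOSB, a close relative of FOS, had ratios of 0.15 and 0.45, a mean of 0.30 (standard error 0.13, adjusted p = 0.267 in limma). Its only spot carries a code of 2 in the Failed field of the array files, whose meaning was not given in the sources used here.

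FOSL1 and FOSL2 encode Fra-1 and Fra-2, Fos proteins that lack the strong activation domain of c-Fos, and Fra-2 is known for its part in osteoblast differentiation in mice. FOSL1 had net intensities of 331 and 351 on replicate 1, and 403 and 462 on replicate 2, with ratios of 0.16 and 0.07. Its mean of 0.12 (standard error 0.10, adjusted p = 0.536 in limma) had a 95% interval of -0.18 to 0.41. FOSL2, by contrast, was below 0 at each of its 6 spots on both arrays after normalization.

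FOSL2 clone IMAGE:292528 read 327 in Saos-2 against 165 in Saos-2-2 on replicate 1, and 245 against 86 on replicate 2. Its log2 ratios were -0.78 and -1.33, a mean of -1.05 (standard error 0.17, 95% interval -1.55 to -0.55, n = 2 arrays), or 2.07-fold lower in Saos-2-2. The adjusted p was 0.114 in limma (0.00472 unadjusted). Clone IMAGE:271441 had 634 and 378 on replicate 1, and 478 and 181 on replicate 2, with ratios of -0.57 and -1.33 and a mean of -0.95 (standard error 0.22, adjusted p = 0.145). The spots of IMAGE:490600 lay on different source plates. They gave -0.95 and -1.23 at the first and -0.28 and -0.53 at the other, and their mean over both arrays was -0.75 (standard error 0.12, adjusted p = 0.114). IMAGE:77577 was nearest to 0, with -0.27 and -0.33 and a mean of -0.30 (standard error 0.10, adjusted p = 0.211). Both of its spots carry a code in the Failed field, and 1 of them was dim, with net intensities of 38 to 40. The size of the FOSL2 ratio therefore varied between clones, from -1.05 to -0.30, whereas its sign did not. The mean over FOSL2 clones lay below that of FOSL1 by 0.71 on replicate 1 and 1.04 on replicate 2, and below that of FOS by 1.36 and 1.23.

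EGR1 encodes a zinc finger factor that is induced with FOS by serum response factor and its ETS partners. At clone IMAGE:840944 the net intensity was 122 in Saos-2 against 392 in Saos-2-2 on replicate 1, and 106 against 286 on replicate 2. The Saos-2-2 values lay above both Saos-2 values, and here too the share of all spots separated in this way was not counted. The log2 ratios were 1.42 and 0.95, a mean of 1.19 (standard error 0.16, 95% interval 0.74 to 1.64, n = 2 arrays), or 2.28-fold higher, at the 99.4 percentile of all probes. The adjusted p was 0.106 in limma (0.00216 unadjusted). Clone IMAGE:753104, whose reads also match DCT, was dim in both lines, with net intensities of 43 to 80. It gave 0.19 and 0.25, a mean of 0.22 (standard error 0.10, adjusted p = 0.295), and bears only partly on EGR1.

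ATF3 is a stress-induced leucine zipper factor that pairs with Jun proteins. Its clone read 465 in Saos-2 against 440 in Saos-2-2 on replicate 1, and 398 against 747 on replicate 2. The log2 ratios of 0.03 and 0.74 gave a mean of 0.39 (standard error 0.21, adjusted p = 0.339 in limma), so that the higher mean rests on replicate 2. IER3 is an immediate early gene that modulates cell survival. It had net intensities of 661 and 456 on replicate 1, and 572 and 419 on replicate 2, with Saos-2-2 below Saos-2 on both arrays. Its ratios were -0.37 and -0.51, a mean of -0.44 (standard error 0.11, 1.36-fold lower, adjusted p = 0.149 in limma, 0.0169 unadjusted).

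Clones of JUNB, JUND, FOS, FOSL2 and JUN differed between the arrays in the same direction as the other clones of their gene. Replicate 2 exceeded replicate 1 by 0.67 and 0.59 on the log2 scale at the JUNB clones, by 0.28 and 0.45 at those of JUND and by 0.71 at ATF3. It lay below replicate 1 at the FOS clones, with differences of -0.52 and -0.56, and at EGR1 IMAGE:840944, with -0.47, whereas the clone shared with DCT differed by 0.07. The FOSL2 clones ran from -0.76 to -0.07. At the JUN clones the differences were 0.18 and 0.13. For all tested probes this difference ran from -0.57 at the 5th percentile to 0.63 at the 95th, so that ATF3 and 1 JUNB clone lay above that range and FOSL2 IMAGE:271441 below it. The collagen and SPARC ratios were higher on replicate 2 by far more, and whether these differences belong together was not tested.

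The values used moved the calls of 3 genes. With the deposited log2 ratios, which were scaled by a single factor per array, 5 member clones passed an adjusted p of 0.05 in limma. Of these clones 1 was higher and 4 were lower. Of all probes, 4.57% were called higher and 1.62% lower with these values. EGR1 IMAGE:840944 had 1.32 (adjusted p = 0.0378), the JUN clones had -1.22 (0.0329) and -1.02 (0.0475), and FOSL2 had -1.55 at IMAGE:292528 (0.0436) and -1.0 at IMAGE:490600 (0.0463). With the scanner software's log2 ratio of means the EGR1 clone and both JUN clones passed, at 0.0440, 0.0430 and 0.0483, where 3.82% of all probes were called higher and 1.1% lower. Under every setting that gave a clone a value from both arrays, the mean ratios of FOSL2, JUN and IER3 stayed below 0 and those of EGR1, FOS, FOSB and ATF3 above 0. FOSB and FOSL2 IMAGE:77577 had none when spots with a Failed code were left out, and the clones with several spots had none when spots were tested singly. The mean of EGR1 IMAGE:840944 ranged from 1.14 to 1.5 over these settings, that of JUN IMAGE:358531 from -1.22 to -0.85 and that of FOSL2 IMAGE:292528 from -1.55 to -1.05.

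**Figure D3:**
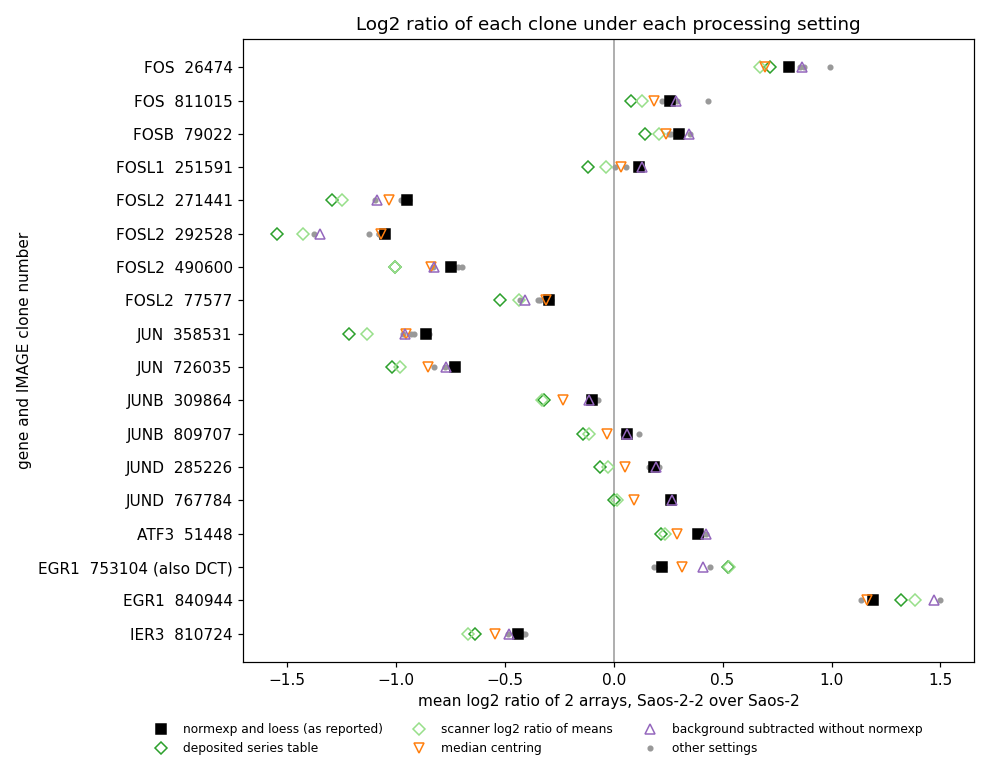
Mean log2 ratio of each clone over both arrays (x axis) under the settings as reported (black squares) and under each alternative (coloured and grey symbols). EGR1 IMAGE:840944 stays between 1.14 and 1.5, all clones of FOSL2, JUN and IER3 stay left of 0, and FOSL1, 1 JUNB clone and both JUND clones have values on either side of 0.

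Genes around AP-1 were counted from 5 lists, with the brightest clone standing for a gene. Among all 13494 genes treated in this way, 11.9% had an unadjusted p under 0.05 in limma and a ratio above 0, and 11.2% had one below 0. The median log2 ratio was -0.02. The counts for the lists use the same threshold. No gene of any list passed an adjusted p of 0.05 in limma.

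AP-1 target genes, known as such from many cell types, include proteases and adhesion molecules used in invasion. Of 26 listed, 24 were measured, and 10 of these were lower at that threshold (41.7%) and 1 was higher. The list's median log2 ratio was -0.22, with -0.49 on replicate 1 and -0.01 on replicate 2. PLAUR, the urokinase receptor, had the lowest ratio, at -2.44 and -1.38 with a mean of -1.91, and its other clones gave -1.13 and -1.56. PLAU, urokinase itself, had -0.50 and -1.05, a mean of -0.78. MMP9, a gelatinase, had -0.59 and -1.12, a mean of -0.86, whereas its other clone gave -0.18. VIM, the intermediate filament vimentin, had -1.60 and -0.56, a mean of -1.08, but its clones ran from -1.32 to 0.00. NTS, the neuropeptide neurotensin, had -0.52 and -0.68, a mean of -0.60. A further 4 of the lower genes had means between -0.54 and -0.36. Among them CXCL8 had -0.36 by its brightest clone but between -0.05 and 0.12 by its other clones. CCND1, cyclin D1, was the gene counted as higher, at 0.35 and 0.32 with a mean of 0.34, and its other clones gave 0.12 and 0.23. In all, 9 genes of the list had a mean above 0 and 15 one below 0. Other genes of the list turned between the arrays, among them SPP1, the matrix protein osteopontin, at -0.91 and 4.20.

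Of 40 other immediate early genes, 35 had a tested probe, of which 6 were higher (17.1%) and 3 lower (8.57%), and the median was -0.01. No tested probe was left for NR4A3, which the paper's supplementary list gives as lower in Saos-2-2. The lowest of the tested genes were CCN1 and CCN2, matricellular proteins that are induced by serum. CCN1 had -2.37 and -1.32, a mean of -1.85, and its other clones gave -1.84 and -1.76. CCN2 had -1.89 and -0.40, a mean of -1.14. SGK1, a serum-induced kinase, had -1.22 and -0.44, a mean of -0.83, while another clone of it gave 0.31. The higher genes were PHLDA1, BTG1, IER2, BTG2, EGR4 and PTGS2. BTG1 and BTG2, which slow proliferation, had means of 0.87 and 0.44, and another clone of BTG1 gave 1.04. IER2 had 0.30 and 0.81, a mean of 0.56, and EGR4, a relative of EGR1, had 0.45 and 0.24, a mean of 0.34. PHLDA1 had 1.01 by its brightest clone but between -0.36 and 0.10 by the other 3. PTGS2, cyclooxygenase 2, had 0.31 by its brightest clone and -0.54 by another, so that its clones disagreed.

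Of 29 other basic leucine zipper factors, 26 were measured, of which 0 were higher and 3 lower (11.5%), and the median was 0.00. CREB5, which binds cyclic AMP response elements, had -0.46, and its other clones gave -0.69 and -0.43. JDP2, which pairs with c-Jun and represses, had a mean of -0.58 by its brightest clone (-0.83 and -0.33 on the arrays), -0.38 by another and 0.59 by a further one. Of 32 kinases and cofactors upstream of AP-1 and EGR1, 30 were measured, of which 1 was higher (3.33%) and 3 lower (10.0%), and the median was -0.05. RPS6KA4, a kinase that acts on chromatin, had 0.50. RPS6KA3, a ribosomal S6 kinase, had -0.50, BRAF had -0.41 and MAPK9, a Jun N-terminal kinase, had -0.34, with its other clones at -0.13 and 0.08.

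Of 20 EGR1 target genes, 16 were measured, of which 2 were higher (12.5%) and 1 lower (6.25%), and the median was 0.03. FN1, fibronectin, had 1.39 and 0.54, a mean of 0.97, and its other clones ran from 0.00 to 0.93. CCNG2, cyclin G2, had 0.64 by its brightest clone and -0.61 by its other clone. SOD1, superoxide dismutase, had -0.30 and -1.08, a mean of -0.69, and its other clone gave -0.34. Among these lists, the share of lower genes among AP-1 targets, 41.7%, stood farthest from that over all genes, 11.2%. The lists were drawn up with earlier results of these data known, so that this share is description only. It also counts each gene by its brightest clone. CXCL8, counted as lower, lay between -0.05 and 0.12 by its other clones. No test of a list was made.

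**Figure D4:**
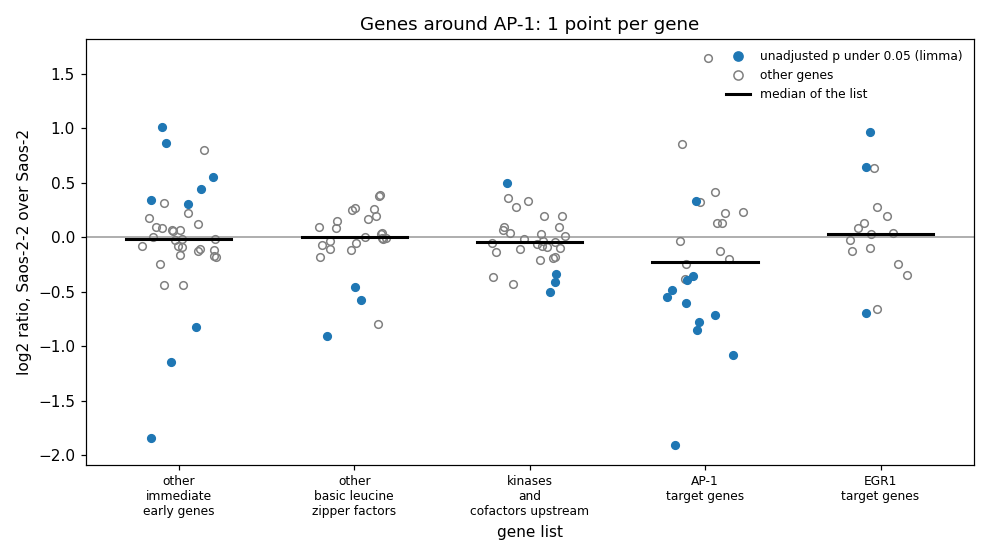
Log2 ratio of Saos-2-2 over Saos-2 (y axis), 1 point per gene by its brightest clone, in 5 gene lists (x axis). Filled points had an unadjusted p under 0.05 in limma, and bars mark the list medians, which run from -0.22 for AP-1 target genes to 0.03 for EGR1 target genes.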

How the data were processed

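RNA of Saos-2-2 (Cy5) and Saos-2 (Cy3) was compared on 2 spotted cDNA arrays, labelled as biological replicates. The deposited scanner files hold the foreground and local background of each channel as linear intensity without normalization. The deposited log2 ratios of the series table equal the scanner's log2 ratio of medians at every spot, after the authors' scaling by a single factor per array. Agilent Feature Extraction is named by the submitters' processing notes, with a version not given in the sources used here. For the supplementary list of genes the legend names limma and the thresholds on fold and p, with its background correction and normalization not given in the sources used here.

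Mean foregrounds were corrected with normexp (offset 50, median local background) and normalized by global loess within each array in limma 3.58.1 under R 4.3.3. The 226 control spots and the spots with a negative flag (3749 and 4381) were left out, and spots of a clone were averaged. Probes below 1.5 times their local background in both channels of either array were dropped. The mean log2 ratio of each of 34674 probes was tested against 0 by lmFit and eBayes (2.75 prior degrees of freedom), with Benjamini-Hochberg adjustment over all probes. Fold changes are on this corrected scale, and the offset lowers those of dim spots. Probes were named through their gene identifiers and current RefSeq symbols, 22553 of them by 1 gene.

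Members and lists were chosen with earlier results of these data known. All members were named, and of each list the genes with an unadjusted p under 0.05 and the same sign on both arrays, up to 6 in each direction by size. A few genes that this rule takes are counted but not reported by name. CXCL8, SPP1, COL1A1, COL1A2 and SPARC were named beside them after their values were seen. Of 15 alternative settings, 1 was chosen after seeing the data. The fit was run on simulated arrays with planted log2 ratios and independent noise. These held no dye effect and no array differences like those at the collagens, so that they cannot show how the fit behaves under such effects. Plots and motif searches used Python 3.11.15 and matplotlib 3.10.9. Both arrays had 0 saturated member spots, and their number limits the precision of every value.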

Additional observations from a re-analysis of the deposited data

How the results depend on the processing

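Of all tested probes, 0 were called at an adjusted p of 0.05 in either direction under most settings, against 8030 at an unadjusted p under 0.05 (limma). Exceptions were normexp with an offset of 0 (370 higher and 81 lower), the deposited series table (1585 and 563) and the scanner's log2 ratio of means (1323 and 380), and the cause was not tested. Over the 14 settings that keep clones whole, 2 to 3 of the member clones were higher and 6 to 7 lower at an unadjusted p under 0.05, beside 12.7% to 14.7% and 9.26% to 13.6% of all probes. With spots tested singly, 2 of the 21 member spots were higher and 9 lower. Of all 36035 spots tested in this way, 4860 were higher and 3578 lower at the same threshold. Spots of 1 gene measure the same transcript. Signs reversed for clones near 0. In the deposited table FOSL1 had -0.12, JUNB IMAGE:809707 had -0.14, and JUND had -0.065 at IMAGE:285226 and -0.001 at IMAGE:767784. In the scanner's ratio of means the first 3 of these clones had -0.036, -0.12 and -0.026. With median centring JUNB IMAGE:809707 had -0.030. With either array alone, 8 or 9 member clones were below 0, against 8 with both. Each array holds both lines as 1 ratio, so that the test of the mean ratio against 0 already compares them as a pair. The arrays form a single group, and no other pairing was available. With 2 arrays and 1 dye orientation, no member can be called free of a dye effect.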
